A study of Sus scrofa with 6 samples.

Results

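The transcripts of 6 genes that write, read or erase histone methylation were followed in pig nuclear transfer embryos and in the donor cells that supplied their nuclei. The genes were EHMT2, SETDB1, EZH2, CBX3, KDM1A and KDM4A, of 6765 genes with a probe set of their own, and every probe set annotated to one of them was taken, which gave 9 of the 24123 on the Affymetrix Porcine Genome Array. A probe set is a group of short probes for 1 transcript, and its MAS5 signal is a brightness on a linear scale. Of the 9, 8 had a single gene symbol, and 1 was annotated to both EZH2 and AKAP9, so its signal cannot be given to either gene.

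In nuclear transfer a somatic nucleus is placed in an oocyte, and the series addresses what DJ-1, a redox-sensitive protein, does in the development of such embryos. The groups were embryos injected with an antibody against DJ-1 (2 arrays), embryos injected with IgG (2 arrays), embryos that were not injected (1 array) and the donor cells (1 array), which were cultured fibroblasts from an adult Meishan pig. Oocytes came from a slaughterhouse, and each embryo array holds a pool of 23 to 26 embryos taken 28 h after the transfer and labelled as 2-cell embryos. Trial 1 held 1 array of each group, and trial 2 added separate pools of anti-DJ1 and of IgG embryos. A pool gives no spread between embryos, the antibody binds the protein rather than the transcript, and the donor cells come from 1 animal.

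Methyl groups on histone H3 mark chromatin for silence or for use. EHMT2 (also G9a) and SETDB1 add them to lysine 9 of histone H3 (H3K9), EZH2 is the catalytic subunit of Polycomb repressive complex 2 (PRC2) and adds them to lysine 27 (H3K27), and CBX3 (HP1 gamma) binds methylated H3K9. KDM1A (LSD1) removes methyl groups from lysine 4 (H3K4) and KDM4A from H3K9 and lysine 36. In mouse nuclear transfer embryos, H3K9 methylation carried in with the donor nucleus is a known barrier to gene activation. Early embryos rely on transcripts that the oocyte stored before their own genome becomes active.

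The arrays had been scaled to a common trimmed mean of about 500.1. The highest of the array's Tag controls, which match no pig transcript, lay between 21.4 and 47.0 and served here as the background. The groups carried the markers of their labels. All 8 measured oocyte and early embryo markers were higher in embryos, with a summed signal of 69637 to 112343 on the 5 embryo arrays, against 219.7 in donor cells. Of 8 tested fibroblast markers, 7 were higher in donor cells, and the summed signal of all 10 measured ones was 1615 to 2023 on the embryo arrays, against 66079 in donor cells. The exception was DCN, which was higher in embryos, and LUM and POSTN lay within the Tag controls on all arrays. Markers of cumulus and granulosa cells summed to 1244 to 1753 on the embryo arrays, against 909 in donor cells. INHBA made up most of that sum, with 975 to 1495 on the embryo arrays and 739 in donor cells. Of the 10 measured, 6, among them FSHR and AMH, lay within the Tag controls on every array. The EF1A control has probe sets at both ends of its transcript, and a high 3′ over 5′ signal ratio marks labelled RNA that falls short of the 5′ end. The ratio was 8.20 to 9.34 on both arrays of trial 2 and 23.9 to 29.95 on the embryo arrays of trial 1, against 4.23 in donor cells.

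Of the 9 probe sets, 7 were bright enough to be tested, and all 7 lay above the highest Tag control on 6 of 6 arrays. The other 2 are annotated to EHMT2 and lay within the Tag controls on every array, at 6.57 to 26.8 and 5.75 to 15.6 in embryos against 8.92 and 10.7 in donor cells. EHMT2 thus rests on its 1 bright probe set. SETDB1, EZH2, CBX3, KDM1A and KDM4A each rest on 1 probe set.

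**Figure D1:**
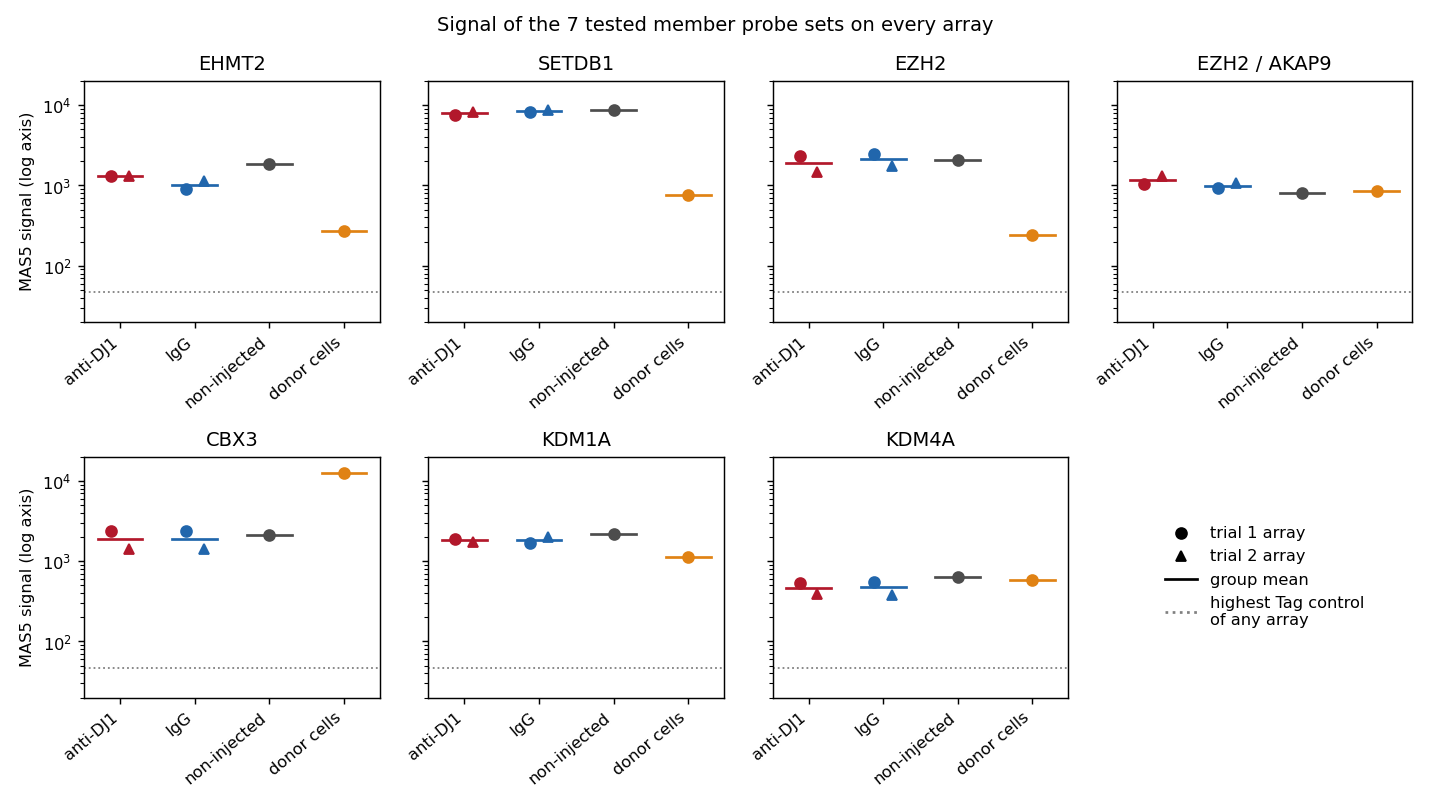
MAS5 signal (log axis) of the 7 tested probe sets in anti-DJ1, IgG and non-injected embryos and in donor cells; points are arrays (circle, trial 1; triangle, trial 2), bars are group means and the dotted line is the highest Tag control of any array, 47.0. EHMT2, SETDB1 and EZH2 lie far lower in donor cells than on any embryo array, CBX3 lies far higher, and the donor cell values of KDM4A and of the probe set shared with AKAP9 lie among the embryo values.

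The largest differences in these genes lay between embryos and donor cells. SETDB1, the methyltransferase that silences transposable elements with its partner TRIM28, had signals of 7540.0 and 8227 in anti-DJ1 embryos, 8241 and 8794 in IgG embryos and 8796 in non-injected embryos, against 757 in donor cells. Its 5 embryo arrays spanned 1.17-fold and each stood 9.96 to 11.6 times above donor cells. The fitted log2 difference, embryos minus donor cells, was 3.42 ± 0.12 (SE, limma, adjusted p = 1.26e-09). Fitted values give the 3 embryo groups equal weight and include a term for the trial, errors beside them are SE, and the donor cells, with 1 array, are assumed to vary like the replicated groups.

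EZH2, the PRC2 enzyme, had signals of 2306 and 1461 in anti-DJ1 embryos, 2457 and 1766 in IgG embryos and 2067 in non-injected embryos, against 240.3 in donor cells. Its embryo arrays stood 6.08 to 10.2 times above donor cells, and the fitted difference was 3.22 ± 0.15 (limma, adjusted p = 1.13e-08). The probe set shared by EZH2 and AKAP9 did not show this contrast, with 1029 and 1324 in anti-DJ1, 927 and 1065 in IgG and 797 in non-injected embryos, against 855 in donor cells. Its fitted difference was 0.09 ± 0.16 (limma, adjusted p = 0.61).

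EHMT2, which places mono- and dimethyl marks on H3K9 in gene-rich chromatin, had signals of 1294 and 1296 in anti-DJ1 embryos, 898 and 1127 in IgG embryos and 1839.5 in non-injected embryos, against 268 in donor cells. Every embryo array stood above the donor cells, by 3.36 to 6.87 times, and the fitted difference was 2.25 ± 0.17 (limma, adjusted p = 4.87e-07). The embryo arrays of EHMT2 spanned 2.05-fold, the widest range of the 7 probe sets.

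CBX3 went the other way. Its signals were 2356 and 1425 in anti-DJ1 embryos, 2368 and 1436 in IgG embryos and 2127 in non-injected embryos, against 12443 in donor cells. Donor cells thus stood 5.26 to 8.73 times above the embryo arrays, with a fitted difference of -2.45 ± 0.13 (limma, adjusted p = 3.41e-08). The reader of H3K9 methylation was lower in embryos, while both H3K9 writers were higher.

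The demethylases differed less. KDM1A, the catalytic subunit of the CoREST complex, had signals of 1907 and 1755 in anti-DJ1 embryos, 1691 and 2001 in IgG embryos and 2159.7 in non-injected embryos, against 1119 in donor cells. Each embryo array stood 1.51 to 1.93 times above donor cells, and the fitted difference was 0.77 ± 0.15 (limma, adjusted p = 0.000967). This call rests on the term for the trial and on the mean-variance trend of the test, since adjusted p was 0.0595 without the trial term and 0.05001 without the trend. It was also lost when any of the 4 anti-DJ1 or IgG arrays was left out, in fits without that term, with adjusted p from 0.0999 to 0.188.

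KDM4A had signals of 538 and 387 in anti-DJ1 embryos, 557 and 384 in IgG embryos and 633 in non-injected embryos, against 575 in donor cells. The donor cells lay between the embryo arrays, and the fitted difference was -0.0023 ± 0.19, with a 95% confidence interval from -0.42 to 0.42 (limma, adjusted p = 0.992).

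In all, 4 of the 7 probe sets were higher and 1 was lower in embryos, where 36% and 41% of all tested probe sets were called higher and lower (77.1% in either direction). The median log2 difference was 0.77 over the 7 probe sets and -0.14 over all 14399. How the arrays are scaled moves that overall median, to 0.35 with quantile normalization and 0.52 with a common 75th percentile, so the differences are also given relative to it. On that footing and over the 3 scalings, SETDB1 stood at 3.17 to 3.57, EZH2 at 3.32 to 3.39, EHMT2 at 2.36 to 2.47, KDM1A at 0.57 to 0.91, KDM4A at 0.11 to 0.15 and CBX3 at -3.02 to -2.30. Before this correction KDM4A changed sign and was called higher in embryos with quantile normalization (0.50, limma adjusted p = 0.0305) and with a common 75th percentile (0.63, adjusted p = 0.00952). The shared probe set was called higher as well (0.39, adjusted p = 0.0401, and 0.73, adjusted p = 0.0012). These scalings called 76.1% and 77.1% of all tested probe sets in either direction. In these bulk samples, fewer transcripts per cell and a smaller share of the RNA from the cells that carry them cannot be told apart. The EF1A ratio and the markers of both cell types moved with this comparison, and their part in it was not tested.

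**Figure D2:**
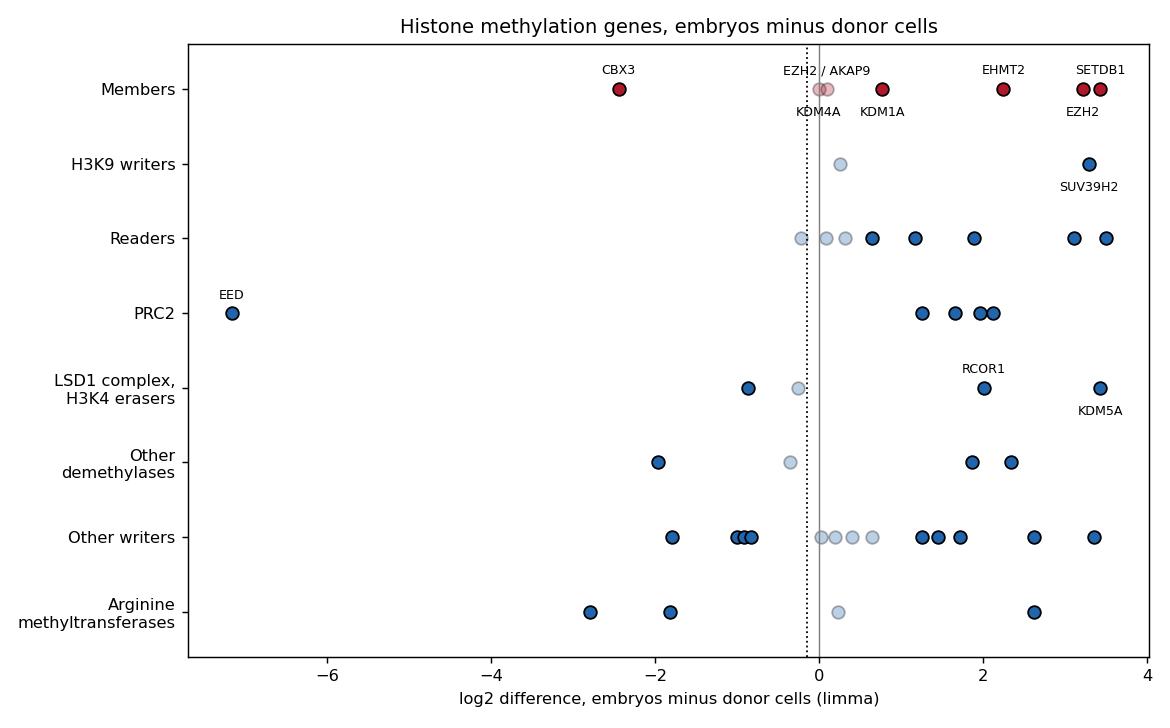
Log2 difference, embryos minus donor cells, for the tested probe sets of the 6 genes (red) and for 40 other histone methylation genes in 7 lists (blue); solid points passed the test, faint points did not, and the dotted line is the median of all tested probe sets, -0.14. SETDB1, EZH2 and EHMT2 lie at 2.25 to 3.42 and CBX3 at -2.45, and EED, a partner of EZH2, is the lowest point.

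Other genes of histone methylation gave the setting for these values. Of 109 further genes in 7 lists, 44 had a probe set with a single symbol and 40 were tested, each by its brightest probe set, and 20 were higher, 9 were lower and 11 did not pass in embryos against donor cells. Their median was 0.64. Of all tested probe sets, 36% were called higher and 41% lower, and the counts within each list below stand beside those shares. With a common 75th percentile 28 were higher and 5 lower, with quantile normalization 25 and 8, and without the term for the trial 17 and 6. In these settings 11101, 10961 and 8341 of all 14399 tested probe sets were called in either direction.

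Among the partners of EZH2 in PRC2, 4 of 5 tested were higher in embryos. The histone-binding subunit RBBP7 stood at 1.96 and the accessory subunits MTF2 and JARID2 at 1.65 and 1.25 (limma, adjusted p = 1.03e-07, 3.31e-07 and 1.34e-05). PHF1, which lay within the Tag controls in donor cells, stood at 2.12 (limma, adjusted p = 0.000242). EED, the core subunit that binds the product of EZH2, was the exception. Its signals were 9.63 and 21.5 in anti-DJ1, 9.15 and 16.2 in IgG and 11.4 in non-injected embryos, all within the Tag controls, against 2083 in donor cells. EED rests on this 1 tested probe set, whose signal was thus at least 57.8-fold lower in embryos (limma, adjusted p = 2.93e-06). The probe sets of 2 core subunits of 1 complex therefore stood in opposite directions. The EF1A ratio also differed in this comparison, and its part in the EED signal was not tested.

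In the H3K9 list, SUV39H2, a methyltransferase of constitutive heterochromatin, stood at 3.29 ± 0.14 (limma, adjusted p = 5.72e-09), with 2915 and 3322 in anti-DJ1, 2779 and 3489.7 in IgG and 2161 in non-injected embryos, against 261 in donor cells. The other tested gene of that list, MPHOSPH8, did not pass (0.25), but was called higher with a common 75th percentile (0.87, limma adjusted p = 0.00283) and with quantile normalization (0.97, adjusted p = 0.00165). Of 8 readers, 5 were higher in embryos and 0 lower, with ING3 at 3.50, PHF20 at 3.11, CDYL at 1.89, ING1 at 1.17 and BPTF at 0.64. The call of BPTF was lost without the mean-variance trend (limma adjusted p = 0.0601), without the term for the trial (0.236) and with any replicated array left out (0.231 to 0.444), and that of ING1 without the term for the trial (0.127) and without anti-DJ1 replicate 2 (0.0552).

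Around KDM1A, its scaffold RCOR1 stood at 2.01 and the H3K4 demethylase KDM5A at 3.43, while HDAC1, the deacetylase of the same complex, stood at -0.87 (limma, adjusted p = 1.54e-07, 1.16e-08 and 0.000396). With a common 75th percentile HDAC1 stood at -0.24 and was not called (limma adjusted p = 0.186), nor was it with any replicated array left out (0.0850 to 0.162). Among other demethylases, KDM3A, which acts on H3K9, stood at 2.34, KDM6A, which acts on H3K27, at 1.86 and KDM2A, which acts on lysine 36, at -1.97, with a second probe set at -0.49 that did not pass (limma, adjusted p = 1.05e-06, 2.03e-06 and 1.58e-05).

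Among other writers, 5 of 13 were higher and 4 lower. The higher ones were NSD3 at 3.35, ASH2L at 2.62, KMT2E at 1.72, DPY30 at 1.44 and SMYD5, within the Tag controls in donor cells, at 1.26. The lower ones were SETD5 at -1.79, MEN1 at -0.997, KMT5B at -0.91 and SETD3 at -0.83. With a common 75th percentile MEN1, KMT5B and SETD3 stood at -0.37, -0.28 and -0.20 and were not called (limma adjusted p = 0.235, 0.165 and 0.235), and MEN1 stood at -0.23 with quantile normalization (0.461). These 3 calls were also lost without the term for the trial (0.215, 0.118 and 0.0697), as was that of SMYD5 (0.0602). With an array left out, MEN1 and SETD3 were lost in each case, KMT5B without IgG replicate 2 (0.0620) or anti-DJ1 replicate 2 (0.0941), and SMYD5 without the same arrays (0.0804 and 0.0878). A further KMT2E probe set stood at -1.42, against the brightest one. Of 4 tested genes of arginine methylation, PRMT2 was higher at 2.62, and PRMT7 and WDR77 were lower at -2.80 and -1.81.

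Anti-DJ1 embryos were set against IgG embryos to ask what follows when DJ-1 is blocked. None of the 7 probe sets passed in limma (0 of 7, where 0% of all tested probe sets were called), and 1 had an unadjusted p under 0.05, as did 5.64% of all. That one was EHMT2, whose 1294 and 1296 in anti-DJ1 embryos lay above the 898 and 1127 in IgG embryos, so the groups did not overlap. They did not overlap for SETDB1 either, which was lower in anti-DJ1 embryos, and 2 of 7 probe sets stand beside 17.5% of all tested probe sets whose groups did not overlap. The log2 difference of EHMT2 was 0.36 ± 0.15 (limma, unadjusted p = 0.0322, adjusted p = 0.879), and the difference within each trial was 0.52 (trial 1) and 0.20 (trial 2).

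For SETDB1 the difference was -0.11 ± 0.10, with -0.13 and -0.10 in the trials, and its 95% confidence interval allowed 0.79-fold to 1.09-fold. EZH2 stood at -0.18 ± 0.13 (interval 0.72-fold to 1.08-fold), with -0.09 and -0.27 in the trials, and CBX3 at -0.0090 ± 0.11 (0.83-fold to 1.18-fold), with -0.0070 and -0.01. KDM1A stood at -0.0080 ± 0.13 (0.81-fold to 1.22-fold), and its trials pointed in opposite directions, at 0.17 and -0.19. KDM4A stood at -0.02 ± 0.16 (0.77-fold to 1.27-fold), with -0.05 and 0.0093. The shared EZH2 and AKAP9 probe set stood at 0.23 ± 0.14, with 0.15 and 0.31. The intervals of these 6 included no difference. The median over the 7 was -0.0090, against -0.0062 over all tested probe sets.

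Of the 40 other histone methylation genes, 0 passed in limma and 0 had an unadjusted p under 0.05. They ranged from -0.38 (KDM4B, which like KDM4A acts on H3K9) to 0.35, with a median of 0.02. The members with the smallest p in each list were KDM3A at 0.31 beside KDM4B, CDYL at 0.28 and PHF20 at 0.12 (other PHF20 probe sets -0.0011 to 0.37), MTF2 at -0.17 and JARID2 at -0.16, HDAC2 at -0.21 and KDM5A at -0.20, NSD3 at -0.21 and SMYD2 at 0.17, PRMT2 at 0.22 and PRMT5 at 0.10, and MPHOSPH8 at 0.19 and SUV39H2 at -0.0011.

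**Figure D3:**
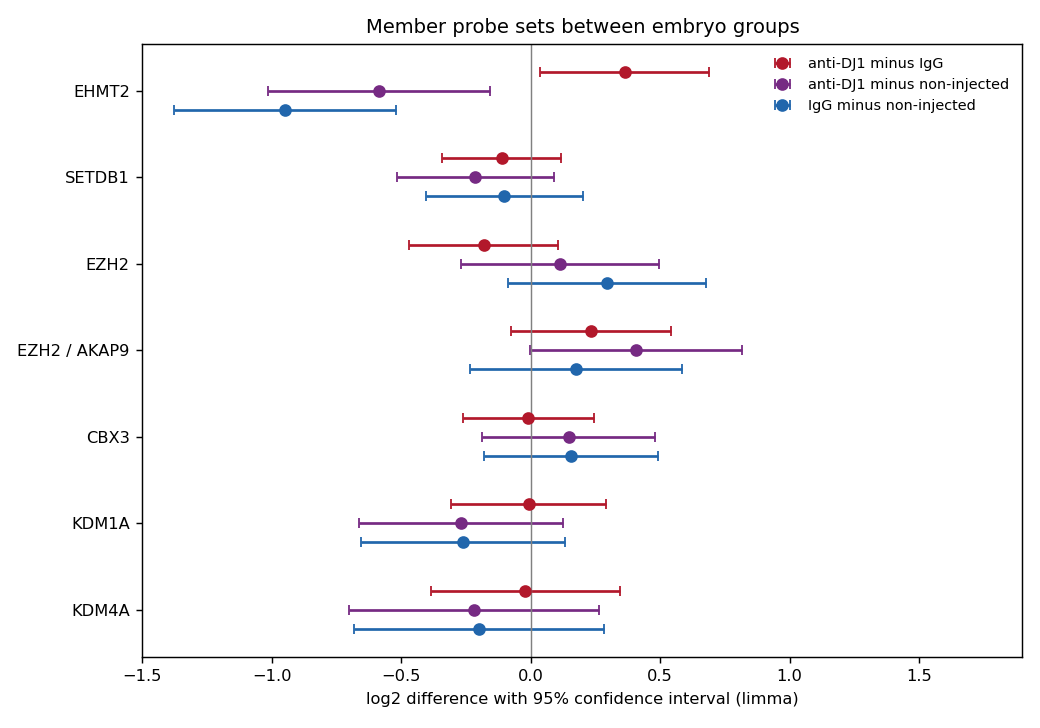
Log2 difference with 95% confidence interval (limma) of the 7 tested probe sets for anti-DJ1 minus IgG, anti-DJ1 minus non-injected and IgG minus non-injected embryos. EHMT2 is the one gene whose 3 intervals all leave out 0, at 0.36, -0.59 and -0.95, and none of the differences plotted passed after adjustment over all probe sets.

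The comparison with non-injected embryos addresses the injection itself and rests on 1 array, which both comparisons share. EHMT2 was lower on every injected array than on that array, with 1294 and 1296 in anti-DJ1 embryos against 1839.5, and 898 and 1127 in IgG embryos against the same 1839.5. Its log2 difference was -0.59 ± 0.19 for anti-DJ1 embryos (limma, unadjusted p = 0.0125, adjusted p = 0.152) and -0.95 ± 0.19 for IgG embryos (unadjusted p = 0.00059, adjusted p = 0.062). Within trial 1 alone it was -0.51 and -1.03. The IgG difference lay close to the threshold, and its call depended on the filter, the scaling, the pseudocount and the model. Adjusted p was 0.044 when the filter used the mean log2 value in place of the mean signal, a choice added after the data were seen, and 0.000211 when the upper 40% alone were tested, where 1.26% and 8.33% of the tested probe sets were called. It was 0.033 with a common 75th percentile and 0.0308 with a higher pseudocount, where 1.46% and 1.64% were called. It stayed above the threshold with quantile normalization (0.0548) and with no pseudocount (0.0618), where 129 and 91 of all 14399 probe sets were called. It was 0.0764 with no filter, 0.386 without the mean-variance trend and 0.992 without the term for the trial. Those last 2 settings called 0 of all 14399 probe sets. For anti-DJ1 embryos EHMT2 passed with only the upper 40% (adjusted p = 0.0393), where 9.84% were called.

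No member passed in either comparison (0 of 7 each, where 1.03% of all tested probe sets were called for anti-DJ1 and 0.465% for IgG embryos). EHMT2 was the 1 member with an unadjusted p under 0.05 in each, beside 18.2% and 16.8% of all tested probe sets. The median over the 7 probe sets was -0.21 for anti-DJ1 and -0.10 for IgG embryos, against -0.0068 and -0.0043 over all tested. The other 6 probe sets stood between -0.27 and 0.41 for anti-DJ1 embryos and between -0.26 and 0.29 for IgG embryos. KDM1A and KDM4A had their highest embryo signals, 2159.7 and 633, on the non-injected array, and the shared EZH2 and AKAP9 probe set its lowest, 797. SETDB1 was level, at 8796 there and 8794 on an IgG array. The summed cumulus and granulosa markers, mostly INHBA, were 1244 and 1753 in anti-DJ1 and 1662 and 1588 in IgG embryos against 1434 in non-injected embryos. The EF1A ratio was highest on the non-injected array. The part of these markers and of this ratio in the values was not tested. Of the 40 other histone methylation genes, 0 passed in limma in either comparison, and 5 for anti-DJ1 and 7 for IgG embryos had an unadjusted p under 0.05. When the upper 40% alone were tested, 36 of these genes remained and 1 passed in each, where 9.84% and 8.33% of all tested probe sets were called. It was the H3K36 methyltransferase NSD1, at 1.23 and 1.32, which is named here after its values were seen.

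EZH2, CBX3 and KDM4A passed in the comparison of the 2 trials, which no member did between embryo groups. CBX3 was lower in trial 2, at 1425 against 2356 in anti-DJ1 embryos and at 1436 against 2368 in IgG embryos, a difference of -0.72 in both groups (fitted -0.72 ± 0.11, limma, adjusted p = 0.00117). EZH2 differed by -0.66 and -0.48 in anti-DJ1 and IgG embryos (fitted -0.57 ± 0.13, adjusted p = 0.00829) and KDM4A by -0.47 and -0.53 (fitted -0.50 ± 0.16, adjusted p = 0.0411). The fitted term uses only the anti-DJ1 and IgG arrays. The non-injected array, which belongs to trial 1, had 2127 for CBX3, 2067 for EZH2 and 633 for KDM4A, above both trial 2 arrays of each gene.

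EHMT2, SETDB1 and KDM1A stood at 0.16, 0.11 and 0.06 between trials, and the shared probe set at 0.28, and these did not pass (limma, adjusted p = 0.434, 0.4597, 0.773 and 0.154). Thus 3 of 7 probe sets were called lower and 0 higher, where 13% and 18.3% of all tested probe sets were called lower and higher (31.4% in either direction), and the median over all tested was 0.13. Relative to that median and over the 3 scalings, CBX3 stood at -0.87 to -0.75, EZH2 at -0.71 to -0.59 and KDM4A at -0.66 to -0.63. SETDB1 was called higher with quantile normalization (0.39, limma adjusted p = 0.0122, where 28.1% were called) and stood at -0.14 with a common 75th percentile, where EHMT2 and KDM1A also changed sign, to -0.08 and -0.19. Without the mean-variance trend 0 of 14399 probe sets passed in limma. The EF1A ratio also differed between the trials, at 8.20 in trial 2 against 24.2 in trial 1 in anti-DJ1 embryos and at 9.34 against 23.9 in IgG embryos, and its part in these values was not tested.

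**Figure D4:**
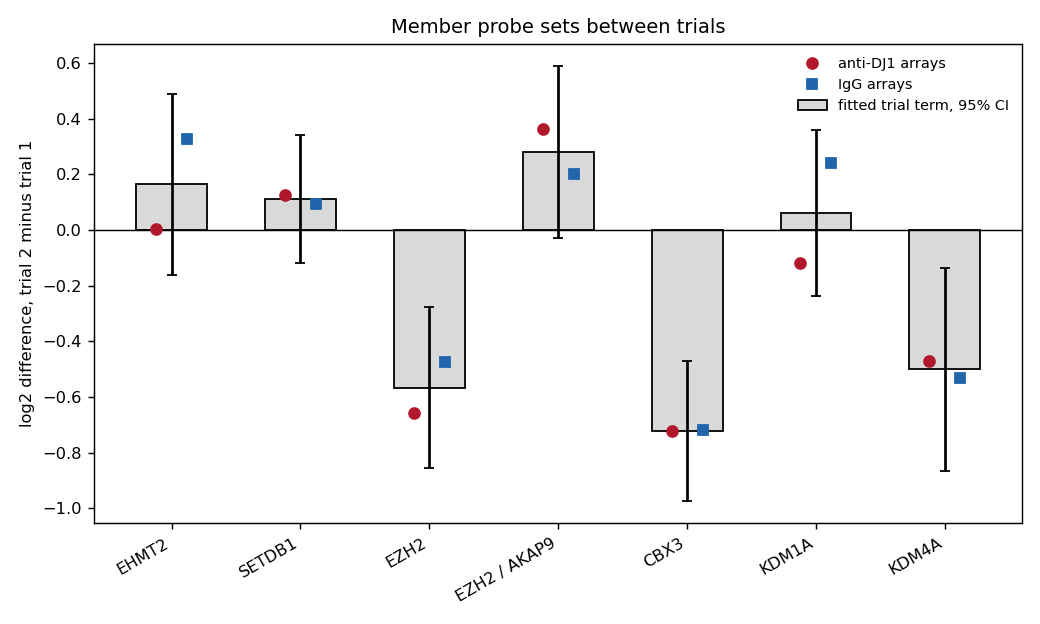
Log2 difference, trial 2 minus trial 1, of the 7 tested probe sets; bars are the fitted trial term with its 95% confidence interval, and points are the difference within anti-DJ1 (circles) and IgG (squares) embryos. CBX3, EZH2 and KDM4A lie at -0.72, -0.57 and -0.50, with both groups on the same side.

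Of the 40 other histone methylation genes, 14 were higher and 6 lower in trial 2, beside 18.3% and 13% of all tested probe sets. The lower ones were MTF2 at -0.79, RBBP7 at -0.63 (0.19 with quantile normalization), RCOR1 at -0.52 (a second RCOR1 probe set at 0.06), KMT5B at -1.14, KMT2E at -0.53 (-0.17 with quantile normalization) and BPTF at -0.39. Among the PRC2 partners of EZH2, MTF2 and RBBP7 were thus lower and PHF1 was higher. In the list around KDM1A, RCOR1 was lower and KDM5A was higher. With quantile normalization RBBP7 and KMT2E were not called (limma adjusted p = 0.118 and 0.191). The higher ones were PRMT2 at 2.40, ING1 at 1.65, CDYL at 1.52, SMYD3 at 1.36, CXXC1 at 1.15, PRMT5 at 1.14 (a second probe set at -0.27), PHF1 at 1.01, MPHOSPH8 at 0.74, KDM4B at 0.64, NSD3 at 0.60, KDM5A at 0.58 (a second probe set at -0.03), CHD4 at 0.53, KDM6A at 0.53 and DPY30 at 0.48. The split moved with the scaling, to 6 higher and 10 lower with a common 75th percentile and 9 higher and 7 lower with quantile normalization. These scalings called 4771 and 4046 of all 14399 tested probe sets in either direction. PHF1, MPHOSPH8, KDM4B, NSD3, KDM5A, CHD4, KDM6A and DPY30 were not called with a common 75th percentile (limma adjusted p = 0.0658 to 0.168), and PHF1, MPHOSPH8, KDM4B, NSD3 and KDM6A were not with quantile normalization either (0.0716 to 0.185). Without the mean-variance trend 0 of the 40 passed.

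The genes with the most similar patterns were sought over the 6 arrays among 5233 named genes, by the root mean square difference of log2 values after each profile was centred on its mean. Those nearest to SETDB1 were NUP37, a nuclear pore protein, at 0.03 and DNAJC9, a histone chaperone, at 0.04. CBX3 was nearest to ERP44, a chaperone of the endoplasmic reticulum, at 0.06 and KIAA0232 at 0.11, KDM1A to RHOU at 0.06 and ERAL1 at 0.08, and KDM4A to CASP2 at 0.07 and LAPTM4A at 0.08. EZH2 was nearest to FAM151B and DR1, at 0.12 each. EHMT2 had no pattern as close, with PPP2R5C, a phosphatase subunit, at 0.19 and TUSC2 at 0.19.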

How the data were processed

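RNA from 5 pools of pig embryos and 1 sample of donor cells, 50 ng each, was labelled with biotin in 2 amplification cycles and hybridised to 1 array per sample, per the labels' protocols. The deposited values are linear intensities, 1 per probe set, and the submitters' processing notes name MAS5. Which version and scaling target the authors used was not given in the sources used here. After leaving out 124 control probe sets, log2(signal + 4.57) was taken, with 4.57 the 10th percentile of all signals, and the upper 60% by mean signal (14399 of 23999) were tested with limma 3.58.1 in R 4.3.3 (lmFit, eBayes with a mean-variance trend), with group and trial as terms over all 6 arrays, two-sided, with Benjamini-Hochberg adjustment over all probe sets tested and a threshold of 0.05. Every adjusted p is from this test unless an alternative is named. Beside its own 1 residual degree of freedom, the fit borrows 9.17 from the other probe sets.

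The trial is the replicate number, which the design text ties to separate trials with their own IgG control, and same-trial deviations of anti-DJ1 and IgG arrays correlated at r = 0.559 across probe sets. P-values rest on how far the anti-DJ1 minus IgG difference varied between the 2 trials and on the spread borrowed from other probe sets. They do not measure the spread between trials, and the single non-injected and donor cell arrays add none. Fold changes are on the log2(signal + 4.57) scale, which understates dim probe sets. For the "at least" fold of EED, the Tag control replaced dimmer embryo signals, and the donor cell signal was divided by their geometric mean. The number of arrays limits the precision, and the median 95% confidence interval reached 1.43-fold to either side for anti-DJ1 against IgG embryos and 1.61-fold for the comparisons with the non-injected array. The fit was tested on simulated data for the comparisons of anti-DJ1 with IgG and of IgG with non-injected embryos; in both, false calls made up a larger share of the calls than the threshold of 0.05.

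Gene symbols come from GEO's platform annotation, which can be old; looking up its gene IDs in the RefSeq table of Sscrofa11.1 changed 0 symbols. The 6 genes and the lists were chosen with earlier results of these data known. Genes named besides them are those of the lists past the threshold, the 2 of each list with the smallest p for anti-DJ1 against IgG embryos, and the 2 nearest in pattern to each of the 6. Alternatives were another scaling (quantile, common 75th percentile), pseudocount, filter, no trend, no block for the trial, and leaving out each replicated array.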

Additional observations from a re-analysis of the deposited data

How the results depend on the processing

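For anti-DJ1 against IgG embryos, 0 of the tested probe sets of the 6 genes passed under any alternative that kept all 6 arrays. With no replicate block, 0 of all 14399 probe sets passed in any comparison between embryo groups. The 0 there thus says nothing about these genes. Fits with an array left out also lack the block, so their calls between embryo groups are not read. For IgG against non-injected embryos the count was 0, and 1 (EHMT2) with a common 75th percentile, a pseudocount at the 25th percentile, only the upper 40% of probe sets, and a filter on the mean log2 value, which was chosen after seeing the data. For anti-DJ1 against non-injected embryos it was 0, and 1 (EHMT2, adjusted p = 0.0393) with only the upper 40%. For embryos against donor cells it was 5, and ran from 4 with no replicate block or without the trend to 7 with quantile normalization or a common 75th percentile. Of all 14399 probe sets, 11095 were called in the main fit, 8341 with no block and 10249 without the trend. Quantile normalization called 10961 and a common 75th percentile 11101. Between trials it was 3, and 0 without the mean-variance trend, where 0 of all 14399 probe sets passed. That 0 likewise says nothing about these genes. Leaving out an array of a pair leaves no residual degree of freedom with the block, so those fits have none, and the lone array is assumed to vary like the other groups.

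The direction of EHMT2 was kept under 13 of 13 alternatives in each comparison between embryo groups. It ran from 0.20 to 0.53 for anti-DJ1 against IgG embryos and from -1.03 to -0.70 for IgG against non-injected embryos. Those ends come from fits with an array left out. The filter and the trend cannot change the difference, and leaving out an array cannot turn its sign where groups do not overlap. With the other scalings and pseudocounts EHMT2 stood at 0.35 to 0.37 and at -0.97 to -0.91. Under the other scalings KDM4A, near 0 between embryos and donor cells, stood at 0.63 (common 75th percentile) and 0.50 (quantile). Likewise CHD4 stood at 0.42 in embryos against donor cells with a common 75th percentile, against -0.21 in the main fit. A second CHD4 probe set stood at 1.55 in the main fit. RBBP7 stood at 0.19 between trials with quantile normalization, against -0.63. Over all probe sets, IgG against non-injected embryos gave 67 calls, and 0 (no trend or no block) to 800 (upper 40%) under the alternatives, and anti-DJ1 against non-injected embryos gave 148, and 0 to 945. Anti-DJ1 against IgG embryos gave 0, 1 with the higher pseudocount and 58 with the upper 40%.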
